A study of Mus musculus with 360 samples.

Results

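The 10 genes described here encode heat shock proteins, the chaperones that hold, fold and refold other proteins. They were chosen by name out of the 24015 gene symbols of the count tables. The genes were Hspa1a, Hspa1b, Hspa8, Hsph1, Dnajb1, Dnaja1, Hspd1, Hspe1, Hspb1 and Hsp90aa1. Hspa1a and Hspa1b may share reads, so they are given singly and together.

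Proteins of the HSP70 family bind and release exposed stretches of unfolded chains in a cycle of ATP binding and hydrolysis. J-domain proteins such as Dnajb1 and Dnaja1 deliver the clients and speed up the hydrolysis, and Hsph1 exchanges the nucleotide. When proteins unfold, heat shock factor 1 binds heat shock elements, which are inverted repeats of the letters GAA and TTC, and raises the inducible genes within minutes. Some members, Hspa8 above all, are made in nearly every cell at all times, and the inducible ones are also known to respond to the handling of tissue.

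The cells were sorted skeletal stem and progenitor cells (CD51+;CD200+) of wild-type CD-1 mice at postnatal day 3. Each had a full-length cDNA library of its own. They came from the posterior frontal suture (PF), the sagittal suture (SAG), the coronal suture (COR) and the tibial growth plate (GP), after repeated enzymatic digestion of the tissue. Each tissue filled 2 plates, named here PF1, PF2 and so on, no animal was named for any cell, and the animals behind a plate cannot be told apart.

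Of 360 cells, 325 had at least 500 genes with a read and 10000 reads and were kept, with 16 to 58 cells a plate. Each tissue is therefore 1 sample, no p-value was computed, and the only spread within a tissue is that between its plates. The level of a gene is its reads summed over cells per 1000000 reads (CPM), with the ribosomal gene Rn45s left out of the totals. A plate held 3237921 to 28799387 other reads. SAG2 stood apart from the other plates. Rn45s took 86.8% of its reads against 20.2% to 31% elsewhere, and its cells had a median of 875 genes with a read against 2112 to 3867. SAG1 and SAG2 were kept apart for that reason, and SAG in a tissue comparison means SAG1. Chondrocyte markers summed to 20258 CPM on SAG1 and 13824 CPM on SAG2, and to 129 to 4454 CPM on the other plates, GP included. Osteoblast markers summed to 61760 CPM on SAG1, 14736 CPM on SAG2 and 50706 to 186920 CPM on the other plates. The markers of endothelial cells summed to 0 to 25.6 CPM and those of blood cells to 0.727 to 20.1 CPM.

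The promoters of the genes on which the results below turn are shown first, because the letters bound by heat shock factor 1 can be read in them. Each is the 250 bases before a RefSeq start of the gene on GRCm38.p6, read 5′ to 3′ on the strand of the gene. Some genes, Dnajb1 among them, have more than 1 start, and not all windows are shown. Capitals mark every GAANNTTC or TTCNNGAA, where N is any base. Both patterns read the same on either strand, and they may overlap.

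Hspa1a (chr17:34972157-34972406, minus strand): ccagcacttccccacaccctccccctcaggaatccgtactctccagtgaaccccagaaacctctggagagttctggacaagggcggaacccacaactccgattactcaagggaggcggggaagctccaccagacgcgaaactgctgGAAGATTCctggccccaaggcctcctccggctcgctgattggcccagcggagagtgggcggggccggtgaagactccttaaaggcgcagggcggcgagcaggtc

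Hspa1b (chr17:34959239-34959488, minus strand): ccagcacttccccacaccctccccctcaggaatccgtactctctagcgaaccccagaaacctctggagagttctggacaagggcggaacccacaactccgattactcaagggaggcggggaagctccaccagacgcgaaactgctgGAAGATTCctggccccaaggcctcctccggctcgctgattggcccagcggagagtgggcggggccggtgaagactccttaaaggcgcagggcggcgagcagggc

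Dnajb1 (chr8:83607925-83608174, plus strand): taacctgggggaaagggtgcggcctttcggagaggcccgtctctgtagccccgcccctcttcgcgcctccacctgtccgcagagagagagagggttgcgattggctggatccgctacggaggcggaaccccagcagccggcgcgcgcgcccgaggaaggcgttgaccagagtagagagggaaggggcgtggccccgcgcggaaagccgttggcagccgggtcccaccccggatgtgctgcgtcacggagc

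Hspa1a and Hspa1b had 247 of 250 bases in common (98.8%), and both held 1 match, at -104 from the start. The Dnajb1 window held none, which says only that these letters are not in it. At least 1 match was found for 7 of the 8 members with an entry in the RefSeq promoter table, Dnajb1 being the exception. Of all 32851 windows in the table, 12.8% held a match. The 2 figures are unlike, since the 8 members had 13 windows and a member counted when any of its windows matched. Hspa1a with Hspa1b, and Hspd1 with Hspe1, match in the same letters, so the 7 are not separate hits.

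Hspd1 and Hspe1, whose proteins form the mitochondrial chaperonin and its lid, lie head to head. A window of each holds the longest run of alternating units among the 8 members with a window, which do not include Hspa8 and Hsp90aa1. The other Hspd1 window holds no match. In the 30 bases below, read along the Hspe1 strand, the 18 bases of the run are in capitals.

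Hspe1 and Hspd1 (chr1:55088053-55088082, plus strand): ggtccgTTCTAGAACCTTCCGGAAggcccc

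At least 3 alternating units in a row, with 2 bases of any kind between GAA and TTC or TTC and GAA, were found in 0.466% of all windows on searching both strands. The levels of Hspd1 and Hspe1 were only weakly related across cells, with a mean Pearson correlation of 0.17 over 8 plates. GENCODE vM1 on mm9, the build of the counts, also gives the 2 genes 112 overlapping exonic bases on opposite strands. The use of strand in the counting was not given in the sources used here, so reads from these bases could belong to either.

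Across PF, COR and GP the 10 genes as a whole were level. Their reads summed to 2276 CPM in PF, 2452 CPM in COR and 2710 CPM in GP. The plates of one tissue differed more than that, with 1590 and 2442 CPM on PF1 and PF2, 1572 and 2551 CPM on COR1 and COR2 and 2072 and 2844 CPM on GP1 and GP2. SAG1 stood above all 6, at 4575 CPM, and SAG2 below, at 1498 CPM. The log2 ratio of the sum was 1.01 for SAG1 to PF (0.91 and 1.52 against the single plates), 0.90 to COR (0.84 and 1.54) and 0.76 to GP (0.69 and 1.14). Between PF, COR and GP it was -0.25 to -0.11, with ratios of single plates on both sides of 0.

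**Figure D1:**
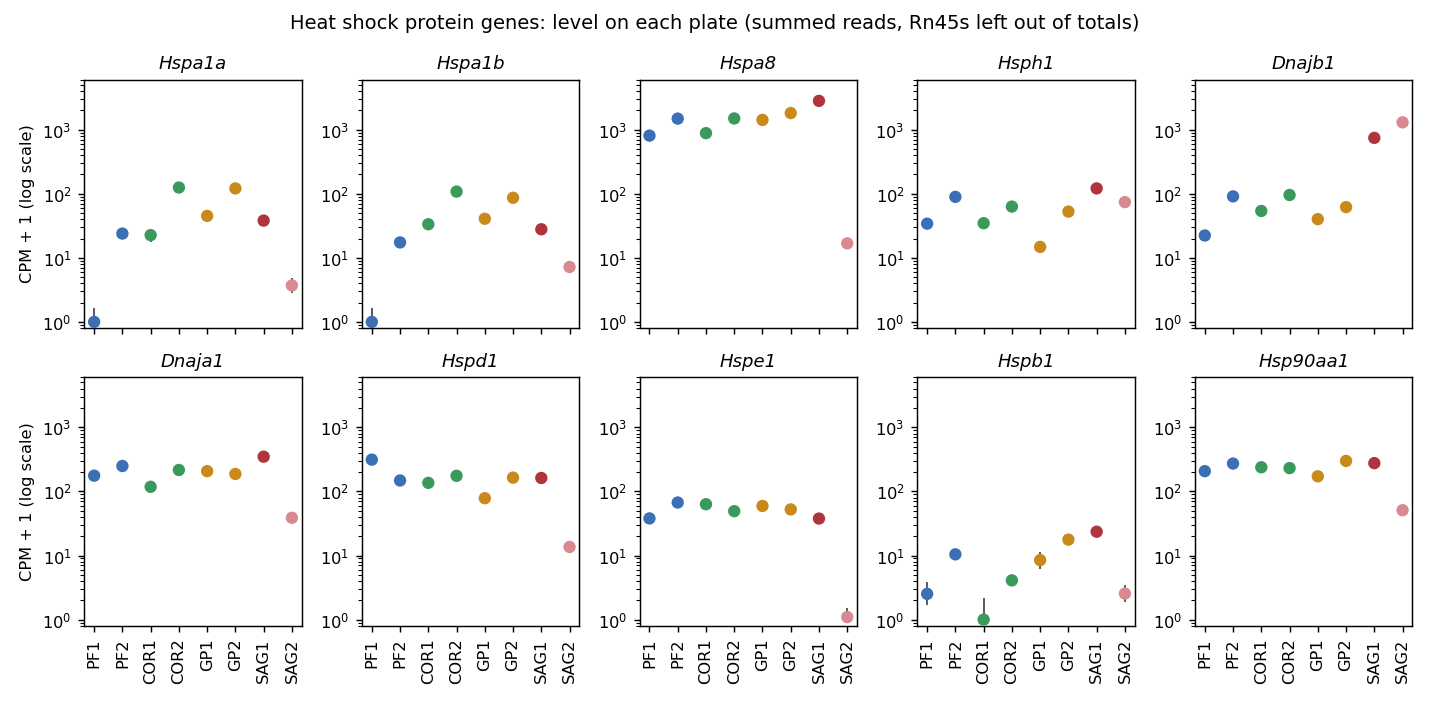
Level of each of the 10 genes on each of the 8 plates, as CPM + 1 on a log axis, with points coloured by tissue and bars for the exact 95% Poisson interval, which covers counting error only and is mostly hidden by the points. Dnajb1 is highest on SAG1 and SAG2 (742 and 1298 CPM), while Hspa8 falls from 2807 CPM on SAG1 to 15.8 CPM on SAG2.

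A gene was called between tissues when the tissue ratio was at least 2-fold and every ratio of a plate of one to a plate of the other had its sign. Genes with a mean of at least 10 CPM over the 8 plates were eligible, which held for 8912 genes and for 9 of the 10 members, Hspb1 being the exception. Among PF, COR and GP few members were called, near the share of all genes. For PF against COR, 1 of 9 members was called, Hspa1b, against 10.6% of all genes. For PF against GP, Hspa1a and Hspa1b were called, against 14.4% of all genes, and both were lower in PF. For COR against GP, 0 of 9 were called, against 11.8%.

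The 3 comparisons with SAG1 share its 30 cells. Hspa8 and Dnajb1 were called higher in SAG1 than in PF, where 30.9% of all genes were called. Against COR, Hsph1 and Dnajb1 were called higher and Hspa1b lower, with 29.1% of all genes called, and the call of Hsph1 was at the threshold. Against GP, Hsph1 and Dnajb1 were called higher and Hspa1a and Hspa1b lower, with 30.7% called. The counts of 2, 3 and 4 of 9 members are near these shares. All plate ratios had 1 sign for 8, 7 and 7 of 9 members against PF, COR and GP. Of all genes this held for 69.5%, 73.9% and 72.4%, so a SAG1 level outside those of a tissue was usual.

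Plates of a single tissue differed on the same scale. At least 2-fold ratios of plate 1 to plate 2 were seen for 5 of 9 members in PF, 2 in COR and 4 in GP, and for 37.9%, 30.6% and 34.3% of all genes.

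**Figure D2:**
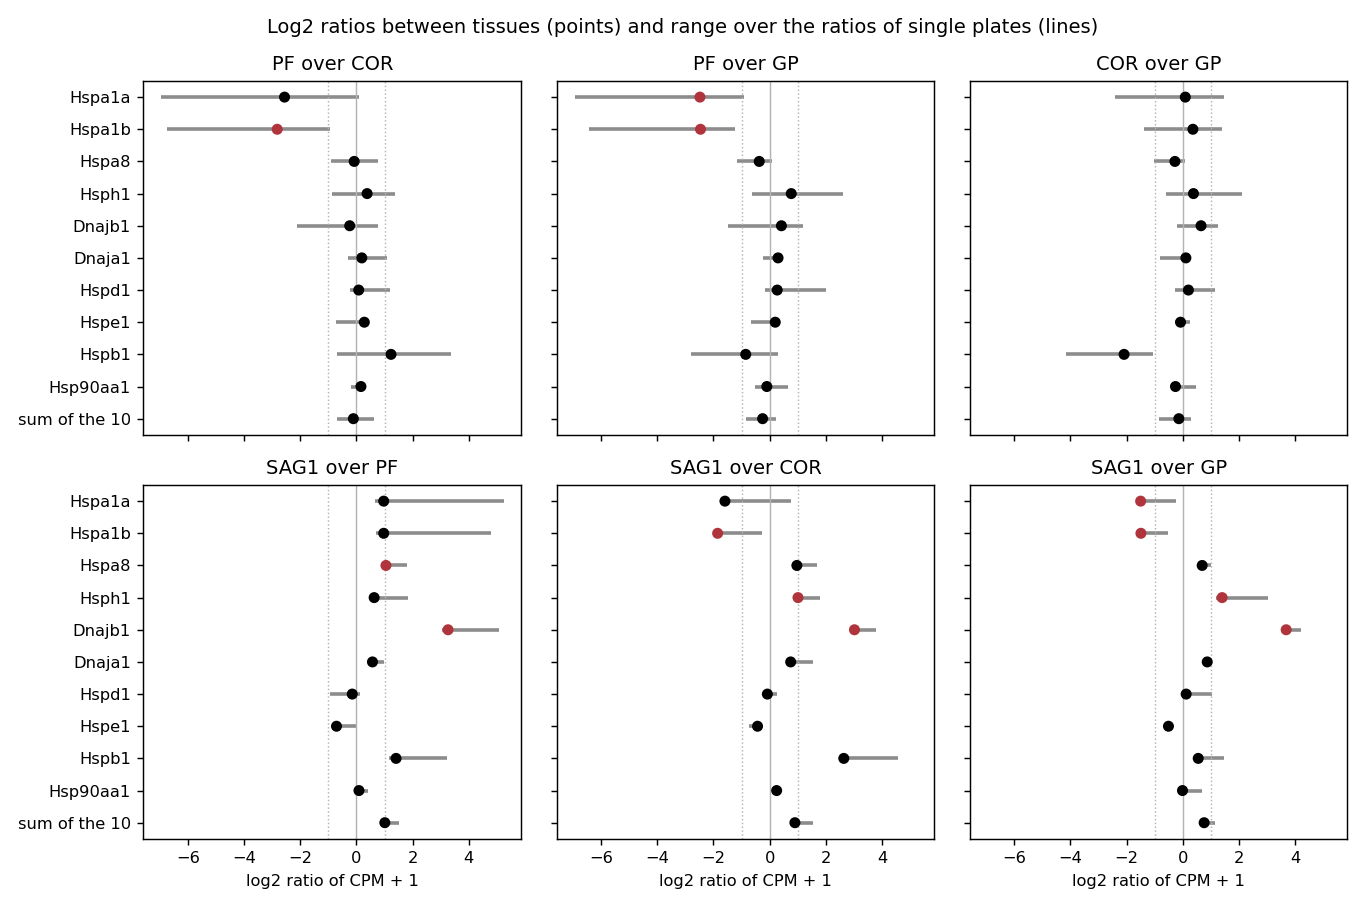
Log2 ratios of CPM + 1 between tissues (points) for the 10 genes and their sum, with lines for the range over ratios of single plates and dotted lines at 2-fold. Points in red are eligible genes that were called; Dnajb1 is the member with the largest ratio in all 3 comparisons with SAG1 (3.26, 3.02 and 3.68).

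Dnajb1 encodes the inducible J-domain partner of HSP70. It lies on chr8:86132074-86135801 (mm9, plus strand). Its level was 21.3 CPM on PF1, 89.9 on PF2, 52.8 on COR1, 94.5 on COR2, 39.1 on GP1 and 60.8 on GP2. On SAG1 it was 742 CPM and on SAG2 1298 CPM. Both sagittal plates thus stood above all 6 other plates, with no overlap. Of all genes, SAG1 lay outside the plates of PF for 69.5%, of COR for 73.9% and of GP for 72.4%, in either direction. SAG2 was no close repeat of SAG1, since 77.3% of all genes differed at least 2-fold between them. The log2 ratio of SAG1 was 3.26 to PF (3.03 to 5.06 over single plates), 3.02 to COR (2.96 to 3.79) and 3.68 to GP (3.59 to 4.21). By this ratio Dnajb1 ranked at 123, 143 and 56 from the top of the 8912 genes.

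The share of cells with a Dnajb1 read did not follow its level. It was 53.3% on SAG1 (95% exact binomial interval 34.3 to 71.7) and 33.9% on SAG2 (21.8 to 47.8). On the other plates it ran from 14.7% on PF1 to 56.2% on COR1. What differed was the level in the cells that had reads. Their median was 282 CPM on SAG1 and 2221 CPM on SAG2, against 71.4 to 189 CPM on the other plates. At least 1000 CPM was reached by 6 of 30 cells on SAG1 and 12 of 56 on SAG2. In PF it was reached by 1 of 87 cells, in COR by 1 of 74 and in GP by 0 of 78, which allows a share of up to 3.85%. This threshold was chosen after the values were seen.

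**Figure D3:**
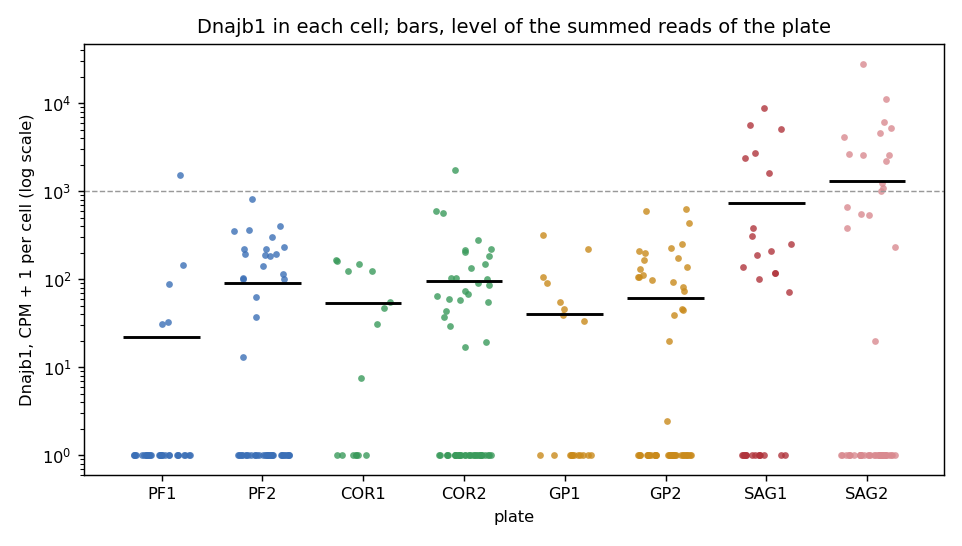
Dnajb1 in each of the 325 cells, as CPM + 1 on a log axis, by plate; black bars give the level of the summed reads of the plate and the dashed line 1000 CPM. Cells above the line lie mostly on the sagittal plates, 6 on SAG1 and 12 on SAG2.

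Few cells carried much of the Dnajb1 level. The 3 cells with most reads gave 71.3% of the Dnajb1 reads of SAG1 and 58.7% of those of SAG2. Without the 3 top cells of each tissue the level was 240 CPM on SAG1 and 569 CPM on SAG2, against 54.3 CPM in PF, 46.1 in COR and 44.7 in GP. In log2 ratios SAG1 then exceeded the tissues by 2.12 (PF), 2.35 (COR) and 2.40 (GP).

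Immediate early genes, which are transcribed within minutes of many stimuli, were also highest on the sagittal plates as a sum. The 12 genes of that list summed to 20016 CPM on SAG1 and 17196 CPM on SAG2, and to 418 to 2305 CPM on the other plates. On SAG2 Egr1 alone gave 12937 CPM. Of the 12 genes, 7 were at least 2-fold lower on SAG2 than on SAG1 and 1 was higher. In the 6 cells of SAG1 with at least 1000 CPM of Dnajb1 the median of the list was 86106 CPM, against 921 CPM in the other cells of that plate. On SAG2 the medians were 29985 and 5176 CPM. The 1 PF cell at this Dnajb1 level had 58.4 CPM of the list, against a median of 104 CPM in the other PF cells. The 1 COR cell had 8424 CPM, against 165 CPM. Across cells, the Pearson correlation of Dnajb1 with the list was 0.55 on SAG1, 0.23 on SAG2 and -0.08 to 0.16 on the other plates. Chondrocyte markers were also highest on the sagittal plates. The part of either in the Dnajb1 level was not tested.

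Hspa1a and Hspa1b encode the inducible HSP70 itself. They lie near each other on chr17:35106144-35109069 and chr17:35093381-35096183 (mm9, both minus strand). Their coding sequences, of 1926 and 1929 bases, were identical at 99.6% of 1926 aligned bases. Of all 150-base words of the Hspa1a transcript, 38.7% also occurred in Hspa1b, and of all 50-base words 59.4% did. A read from such a stretch cannot be given to one of them, so the split between the 2 genes is uncertain. Hspa1a also shares 552 exonic bases with Gm20481, annotated on the opposite strand.

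Few cells had reads of either gene, and most of those had reads of both. Of 325 cells, 25 had reads of both, 2 of Hspa1a alone and 4 of Hspa1b alone. The correlation between the 2 genes across cells was 0.93 to 1.00 on the 7 plates where it could be computed. Few cells set it, since 1 cell had both genes on PF2 and on SAG2, 2 on GP1 and on SAG1 and 3 on COR1. The part of shared reads in it was not tested. Hspa1a gave 55.4% of the reads of the pair over all cells, and 30.4% to 58.4% on single plates.

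The pair was read in 3 of 87 PF cells (3.45%, 0.717 to 9.75), in 9 of 74 COR cells (12.2%, 5.71 to 21.8) and in 16 of 78 GP cells (20.5%, 12.2 to 31.2). By plate, 0 of 34 cells had a read on PF1 and 3 of 53 on PF2, 3 of 16 on COR1 and 6 of 58 on COR2, and 2 of 20 on GP1 and 14 of 58 on GP2. The shares of PF plates lay below those of all COR and GP plates, but on few cells. The intervals overlapped, with 1.18 to 15.7 on PF2 and 1.23 to 31.7 on GP1. How often such shares lie apart was not computed over all genes. In level, the plates lay apart in either direction for 32.6% of eligible genes between PF and COR. Between PF and GP this held for 36.1%. On SAG1 2 of 30 cells had a read, and on SAG2 1 of 56. With each cell thinned to 100000 reads and shallower cells left out, the shares were 1.43% in PF, 11.3% in COR and 23.9% in GP. Both SAG1 cells were too shallow to enter.

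**Figure D4:**
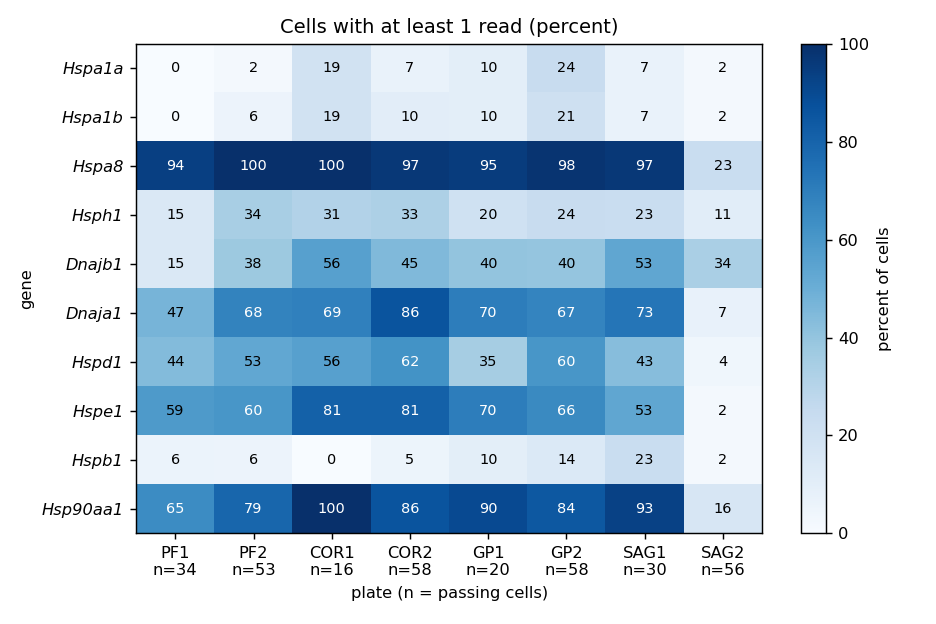
Percent of the passing cells of each plate (columns, with the number of cells) that had at least 1 read of each gene (rows), from 0 in white to 100 in dark blue. Hspa8 is read in 94.1% to 100% of cells on 7 plates and in 23.2% on SAG2, and Hspa1a and Hspa1b in at most 24.1% on any plate.

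The summed level of the pair said little beyond this, since single cells set it. It was 0 CPM on PF1, where a count of 0 allows up to 0.507 CPM, and 39.3 on PF2. COR1 had 54 and COR2 231 CPM, GP1 had 83.8 and GP2 206 CPM, SAG1 had 64 and SAG2 8.9 CPM. One cell gave 99.7% of the reads of PF, 1 gave 95.1% of those of COR and 1 gave 34.2% of those of GP. Without those cells the pair stood at 0.1 CPM in PF, 10.6 CPM in COR and 125 CPM in GP. The next cell of GP gave a further 28.7% of its reads, so the level in GP also rested largely on few cells. At least 1000 CPM was reached by 4 cells of GP, 1 of PF, 1 of COR, 2 of SAG1 and 0 of SAG2.

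The highest cell, from COR2, had 3506 reads of Hspa1a and 2995 of Hspa1b, together 13864 CPM. The same cell had 1732 CPM of Dnajb1, 6805 CPM of Hspa8 and 239 CPM of Hsph1. The lower level of the pair in SAG1 than in GP depended on how cells were weighted. The log2 ratio was -1.50 for Hspa1a and -1.49 for Hspa1b from summed reads, and 0.82 and 0.73 from the mean of CPM per cell. For Hspa1b in SAG1 against COR it was -1.85 and 0.18.

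The 5 genes whose levels were most like those of the pair were all immediate early genes. Likeness was the Pearson correlation of log2(CPM+1) across cells, averaged over 6 plates with 235 cells, among 5368 genes read in at least 20% of cells. Dusp1, a phosphatase of MAP kinases, came first at 0.44. The transcription factor genes Fos (0.39), Egr1 (0.38), Junb (0.38) and Jun (0.33) followed. Ranges over plates were wide, from 0.08 to 0.82 for Dusp1 and from -0.32 to 0.70 for Fos. The points share plate, depth and in many cells a value of 0.

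In PF, COR and GP, cells with a read of the pair had higher medians of the immediate early list than cells without. The medians with and without a read were 1271 and 95.1 CPM in PF, 700 and 128 in COR, and 4533 and 159 in GP. Cells with a read numbered 3 in PF, 9 in COR and 16 in GP. Those of PF had 0, 1271 and 14344 CPM of the list, and those of COR1 had 79.2, 330 and 528 CPM. The correlation of the pair with the list was 0.07 on COR1 and 0.12 to 0.55 on the other plates where it could be computed. On SAG1, with 2 such cells, the medians were 22653 and 1276 CPM and the means 22653 and 20775 CPM. The correlation of the pair with the number of reads of a cell was 0.07 as a mean over 7 plates and ran from -0.40 on SAG1 to 0.41 on COR1.

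**Figure D5:**
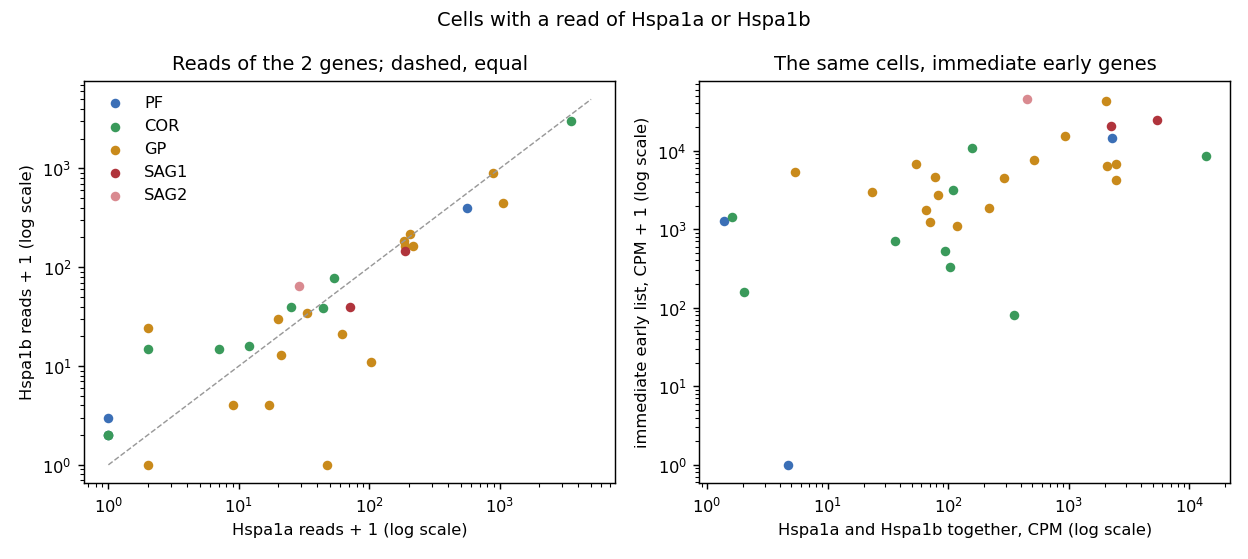
The 31 cells with a read of Hspa1a or Hspa1b, coloured by tissue. On the left, reads + 1 of each gene on log axes with a dashed line of equality, along which most of the 25 cells with both genes lie; on the right, CPM of the pair against CPM + 1 of the immediate early list, both on log axes, with 8 cells at or above 1000 CPM of the pair.

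Hspa8 encodes the constitutive HSP70, which also uncoats clathrin vesicles. It lies on chr9:40609067-40613283 (mm9, plus strand), with small nucleolar RNA genes inside it. Per kb of exon it was the most abundant member in all tissues and on SAG1, at 325 CPM per kb in PF, 419 in GP and 675 on SAG1. The next was Hspd1 in PF (67.8 CPM per kb), Hsp90aa1 in GP (70.2) and Dnajb1 on SAG1 (300 CPM per kb). The length takes in every exonic base of all annotated transcripts, such as 8.63 kb over 10 transcripts for Dnaja1. The order after Hspa8 depends on it, as Dnaja1 had 234 CPM in PF and Hspd1 179 CPM. Hspa8 gave 50.6% to 68.3% of the reads of the 10 genes on 7 plates.

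The level of Hspa8 was 805 CPM on PF1, 1483 on PF2, 880 on COR1, 1493 on COR2, 1415 on GP1, 1811 on GP2 and 2807 on SAG1. SAG1 was thus the highest plate, with a log2 ratio of 1.05 to PF (0.92 to 1.80), 0.97 to COR (0.91 to 1.67) and 0.69 to GP (0.63 to 0.99). The call against PF was at the threshold, and TMM scaling, with a log2 ratio of 0.99, ended it. On GP2 a single cell gave 27.7% of the Hspa8 reads, and without it that plate stood at 1349 CPM. Hspa8 was the member that followed the number of genes read in a cell most closely, with a mean correlation of 0.46 over 8 plates.

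Hsph1 encodes the large nucleotide exchange factor of HSP70. It was read in 10.7% to 34% of cells. Its levels were 33.1 and 88.3 CPM on PF1 and PF2, 33.7 and 62 on COR1 and COR2, 13.8 and 51.6 on GP1 and GP2, 120 on SAG1 and 73 on SAG2. SAG1 was again highest, by a log2 ratio of 1.40 to GP (1.20 to 3.04), 1.01 to COR (0.94 to 1.81) and 0.63 to PF (0.44 to 1.83). The call against COR ended with TMM scaling (0.93), a mean of CPM per cell (0.84), a pseudocount of 10 (0.91) and without the cell with the most reads in each tissue (0.79). Only 7 of 30 cells of SAG1 had reads. Single cells weighed heavily on some plates, with 83.8% of the reads of GP1 from 1 cell.

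Dnaja1 encodes the farnesylated J-domain partner of Hspa8. It was read in 59.8% of PF, 82.4% of COR, 67.9% of GP and 73.3% of SAG1 cells. Its level was 234 CPM in PF, 205 in COR, 190 in GP and 347 on SAG1. SAG1 exceeded each of the 6 other plates, of which the highest had 248 CPM, but by less than 2-fold over each tissue, at log2 ratios of 0.57 to 0.87. Its exons share 931 bases with other annotated genes.

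Hsp90aa1 encodes the inducible form of cytosolic HSP90, which matures kinases and steroid receptors. It was the steadiest member on the plates other than SAG2, where it stood at 49.9 CPM. Hspe1 came close, with 36.7 to 66.1 CPM on those plates. Its level was 206 CPM on PF1, 271 on PF2, 237 on COR1, 230 on COR2, 171 on GP1, 298 on GP2 and 275 on SAG1. The levels of 258 CPM in PF, 231 in COR and 276 in GP could not be ordered beyond the spread of the plates. SAG1, at 275 CPM, lay slightly above the plates of PF and COR and between those of GP. SAG1 lay outside the plates of PF for 69.5% of all genes and of COR for 73.9%. The log2 ratios among PF, COR, GP and SAG1 lay between -0.26 and 0.25.

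In the mitochondrial pair no member was called between PF, COR, GP and SAG1. Hspd1 had 179 CPM in PF, 170 in COR, 148 in GP and 161 on SAG1, while its plates ran from 77.3 on GP1 to 312 on PF1. Hspe1 had 60.4 CPM in PF, 49.6 in COR, 52.6 in GP and 36.7 on SAG1. SAG1 had the lowest Hspe1 of these 7 plates, the closest being PF1 with 36.9 CPM. The COR and GP plates had 48.2 to 62.1 CPM and did not overlap with SAG1, as held for 73.9% (COR) and 72.4% (GP) of all genes. The log2 ratio of SAG1 was -0.71 to PF, -0.43 to COR and -0.51 to GP, all under 2-fold. GENCODE vM1 names 4 Hspe1 pseudogenes, which may have taken or removed reads.

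Hspb1 encodes a small heat shock protein that holds unfolded chains without ATP and binds actin filaments. Its levels were low, with 0 CPM on COR1, 1.52 on PF1, 1.55 on SAG2, 3.09 on COR2, 7.49 on GP1, 9.43 on PF2, 16.7 on GP2 and 22.5 on SAG1. Of the 8 plates, SAG1 also had the largest share of cells with a read, 7 of 30 (23.3%, 9.93 to 42.3). The plates of COR lay below those of GP without overlap, at a log2 ratio of -2.09 (-4.14 to -1.05). Of all eligible genes, 36.2% had the plates of COR and GP apart in this way, in either direction. Only 3 COR cells and 10 GP cells had a read, and the gene was below the level needed for a call.

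On SAG2 most members were far lower than on SAG1, but not Dnajb1. Of the 9 eligible members 7 were at least 2-fold lower than on SAG1 and 0 higher, where 77.3% of all genes differed by 2-fold and the median gene had a log2 ratio of -1.03. Hspa8 fell from 2807 to 15.8 CPM, a log2 ratio of -7.39, and was read in 13 of 56 cells. Hspe1 kept 1 read on the whole plate. Hspd1 stood at 12.6 CPM, Dnaja1 at 37.8 and Hsp90aa1 at 49.9. For Dnaja1 a single cell gave 95.7% of the reads. Hsph1 changed least among the members that were lower, with a log2 ratio of -0.71.

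Dnajb1 was the only eligible member with a higher level on SAG2 than on SAG1, at a log2 ratio of 0.81. It made up 86.7% of the reads of the 10 genes on SAG2, against 16.2% on SAG1 and 1.34% to 3.7% on the other 6 plates. A median of 1 of the 10 genes was read per SAG2 cell and 23 of 56 cells had none, while on the other plates the median was 3.5 to 6 and no cell lacked all 10. After thinning to 100000 reads the median on SAG2 was still 1. Depth in reads other than Rn45s was similar, with medians per cell of 184232 on SAG2 and 188426 on SAG1. With 1 plate each, a difference between plates cannot be told apart from one between their cells.

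Within plates the members did not move as a group. Of all pairs of members only Hspa1a with Hspa1b stood out, with a mean correlation of 0.98. That value rests on 1 to 12 cells a plate with both genes, and reads that the 2 genes may share were not separated. Over the other 44 pairs the mean correlation had a median of 0.08 and ran from -0.11 to 0.25. The pair with Dnajb1 gave 0.21 for Hspa1a and 0.23 for Hspa1b, and Hspa1a with Hsph1 gave -0.01. Such low values across cells with many zeros are a description and no finding.

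Few genes of the other chaperone lists were called among PF, COR and GP. Of all genes, 10.6% were called for PF against COR, 14.4% for PF against GP and 11.8% for COR against GP. With SAG1 the shares were 29.1% to 30.9%. Of the 8 subunits of the cytosolic chaperonin TRiC, 0 were called in any comparison among PF, COR, GP and SAG1. Their sum was 2108 to 2555 CPM on these 7 plates and 171 CPM on SAG2. Of 12 HSP90 co-chaperones and paralogs, 0 were called among PF, COR and GP, and their median log2 ratios were -0.07 to 0.03. Of 14 chaperones of the endoplasmic reticulum, 0 were called for PF against COR, 1 was called higher and 1 lower in PF than in GP, and 1 was called lower in COR than in GP. Dnajb9, a cofactor of the luminal HSP70, was higher in GP (215 CPM) than in PF (69.8) and COR (70.2). Dnajc10, a disulfide reductase, had 184 CPM in PF and 88.8 CPM in GP.

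Of 18 other heat-inducible genes, 0 were called for PF against COR. For PF against GP and for COR against GP, 1 was called in each direction. Hspa4l, an exchange factor related to Hsph1, was higher in GP (25.8 CPM) than in PF (10.8) and COR (8.33). The small heat shock protein gene Hspb8 was lower in GP (6.11 CPM) than in PF (21.2) and COR (29.3). Hspb7 was higher in GP (31.2 CPM) than in PF (9.67). Of the 5 eligible genes of the list of small heat shock proteins, 2 were called lower in SAG1 than in PF and 2 lower than in COR. Against GP, 3 were called lower and 1 higher in SAG1. In these comparisons 30.9%, 29.1% and 30.7% of all genes were called, and 5 genes are few. Both lists of inducible genes and cofactors hold Hspa4l. Among the 18 eligible HSP70 paralogs and cofactors, Hspa14 was higher in PF (99 CPM) than in COR (48.1), and Dnajb2 was higher in GP (38 CPM) than in COR (17.4). The mitochondrial protease gene Lonp1 was higher in PF (51.7 CPM) than in COR (22.2).

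Hsf1, the gene of heat shock factor 1, was higher in PF (37.2 CPM) than in COR (17.3), with GP at 19.6 CPM. On SAG1 it stood at 55 CPM, the highest of the 8 plates, and it was called higher there than in COR (log2 ratio 1.61) and GP (1.45) but not PF (0.55). Only 2 of the 4 heat shock factor genes were eligible.

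Of the 12 immediate early genes, 7 were called lower in PF than in GP, 6 lower in COR than in GP, and 1 lower in PF than in COR. Of all genes, 14.4%, 11.8% and 10.6% were called in these comparisons, in either direction. Junb had 18.7 CPM in PF, 59.1 in COR and 141 in GP, and Zfp36 had 9.57, 9.58 and 54.9 CPM. Ier3 had 14.6, 16.2 and 119 CPM, and Dusp1 had 48.1, 69.4 and 221 CPM.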

How the data were processed

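Single cells of 4 tissues were measured, and the authors deposited raw read counts per gene and cell in 8 tables, 1 for each plate, with 0 columns that matched no cell. The submitters' processing notes name STAR 2.5.3a, HTSeq, Seurat 2.3.0, R 3.4.4 and the build mm9. The annotation, the use of strand and any filter were not given in the sources used here. Counts are of reads after PCR, not of molecules, so exact Poisson and binomial intervals (95%) cover counting error only.

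Python 3.11.15 (numpy, pandas, scipy) was used to sum counts over the kept cells of a plate or tissue and to divide by totals without Rn45s. Ratios are log2((CPM+1)/(CPM+1)), which understates changes of low genes. TMM factors came from edgeR 4.0.16 in R 4.3.3. The 10 members and all lists were chosen with earlier results of these data known. Named were all members, up to 4 genes of each other chaperone list that were called among PF, COR and GP with the largest ratio, and the 5 genes most like Hspa1a with Hspa1b. Marker lists served as checks of the labels. One cell titled SAG, whose description names another tissue, was kept as SAG1. No 2 kept cells had identical counts, and no doublet caller was run on these singly sorted wells. Cell filter, totals, scaling, thinning, pseudocount, single cells and plates were varied.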

Additional observations from a re-analysis of the deposited data

How the results depend on the processing

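The limits are those of 1 sample a tissue, of plates that differ as much as tissues do, and of genes read in few cells. The log2 ratio of the sum of the 10 genes stayed between -0.40 and 0.02 for PF, COR and GP in all settings. For SAG1 it was higher with plate 1 cells alone, at 1.52 to PF, 1.54 to COR and 1.14 to GP, which leaves out the deeper plates by construction. Plate 2 cells alone hold no SAG1 and gave no value for it. For SAG2 to SAG1 the log2 ratio of -1.61 became -4.12 with Rn45s in the totals, -1.68 with TMM factors, -1.71 with no cell filter, -1.65 as a mean of CPM per cell, -1.54 after thinning and -1.94 without the cell with most reads in each tissue. The stricter cell filter left 0 cells of SAG2.

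The number of members called moved from 1 to 2 for PF against COR with Rn45s in the totals or TMM factors, and from 0 to 1 for COR against GP with a mean per cell or with no filter on the mean level. For SAG1 against PF it moved from 2 to 1 with TMM factors and to 5 with a mean per cell, and for SAG1 against GP from 4 to 2 with a mean per cell. Under the mean per cell Hspa1a in SAG1 against GP turned to 0.82, and Hspa1b to 0.73 against GP and 0.18 against COR. The share of cells with an Hspa1a or Hspa1b read was 0% for PF and 10% for GP on plate 1 alone, and 0% for SAG1 after thinning. The rank correlation of Hspa1a with Hspa1b was 0.90.

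Among the values of single members under alternatives, 561 moved by less than the spread between plates, 72 by more and 3 reversed a called ratio. Sign changes of ratios that were not called stand among the others. Hspa1a in SAG1 to PF, for example, went from 0.97 to -4.46 after thinning. The log2 ratio of Dnajb1 in SAG1 ranged from 2.12 to 5.06 to PF, 2.35 to 3.79 to COR and 2.40 to 4.21 to GP. Leaving out the 3 top cells was chosen after seeing the data. Where a value moved, the cause was not tested.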
